A study of Homo sapiens with 8 samples.

Results

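The replication-dependent histone genes encode the core and linker histones that package newly made DNA. A list of 44 such genes, 5 of linker histone H1, 11 of H2A, 11 of H2B, 8 of H3 and 9 of H4, was read from the deposited count table by Ensembl identifier, and all 44 were found among its 63241 gene entries. The genes were listed by name and not picked by value, but with earlier results of these data known. The 8 libraries carry the label of HSC3, an established human oral squamous carcinoma line. In 4 of them the label gives transfection with si-Col1a1, an siRNA to COL1A1 (here the labelled knockdown), and in the other 4 with the negative control si-NC (here the labelled control). Both groups received 100 pmol of siRNA with Lipofectamine 3000 for 48 h. No label says that the 4 libraries of a group were grown apart, and each p-value below covers library spread alone, which may be technical.

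In a dividing cell, these histone genes are transcribed in S phase from dense clusters, under the coactivator NPAT. Their mRNAs end in a conserved stem-loop instead of a polyA tail, and the stem-loop binding protein SLBP carries them through processing, translation and decay. Some of the genes also give a longer, polyadenylated transcript, described in cells that have left the cycle. Replication-independent histones such as H3.3 come from genes elsewhere, with ordinary polyadenylated mRNAs. MKI67 encodes the Ki-67 protein of cycling cells and served as the proliferation gene against which the histone genes were set.

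The siRNA target departed from the labels. COL1A1 stood at 368, 123, 301 and 155 CPM (counts scaled to the same total in every library) in labelled knockdown 1 to 4, against 88.9, 8183, 476 and 689 CPM in labelled control 1 to 4. Labelled control 1 was the lowest of all 8 libraries, so the groups overlapped, and every direction below is between labels. Depth ran from 30684584 to 61795990 counts per library, a ratio of 2.01. Defining genes of other tissues were present against the HSC3 label. All 12 skeletal muscle genes listed were detected, and together took 0.00512% to 4.69% of counts under the knockdown label and 0.00993% to 14.9% under the control label. All 14 salivary gland genes had counts in at least 1 library, and together took 0.00315% to 11.5% under the knockdown label and 0.00321% to 12.8% under the control label. Some of them stayed near the floor: AMY1A, PRB1, PRB2 and PRB4 peaked at 0.521, 3.06, 1.21 and 1.04 CPM. Muscle or gland genes exceeded 1% in labelled knockdown 2 and 4 and labelled control 1 and 3. The 7 squamous epithelial genes took 0.125% to 10.7% under the knockdown label and 0.0514% to 5.29% under the control label. In such bulk libraries, fewer cells of a type and less RNA per cell cannot be told apart.

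The stem-loop that stands in for a polyA tail can be read in the annotated transcripts. Of the 44 genes, 41 had a transcript model under the same Ensembl identifier in GENCODE 29 on GRCh38. In 18 of these the model held the stem-loop pattern on the transcript strand (GG, any 2 bases, CTTT, any 2 bases, AG, any 2 bases, CC). Of all 19951 protein-coding genes, 0.817% held it. Several of the other models end at the stop codon, so a missing match says only that these letters are not in the model. The 18 matches fell into 5 forms, and 1 site of each form is printed here with 5 bases on either side, 5′ to 3′, the stem-loop in capitals.
H2BC21: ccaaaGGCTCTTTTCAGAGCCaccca
H2BC5: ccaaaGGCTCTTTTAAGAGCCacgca
H2AC11: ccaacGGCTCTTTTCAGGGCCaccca
H4C5: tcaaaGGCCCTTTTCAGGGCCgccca
H4C9: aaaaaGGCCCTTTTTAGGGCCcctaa
The H2BC21 form was carried by 8 genes of the H2A, H2B and H3 types, and the H2BC5 form by 4. The H4C5 form was carried by 4 genes, all of H4. In 9 of the 18 models more than 500 bases were annotated after the stem-loop, as in a transcript that reads on past it. Only 1 matching model a gene was read for this, so a longer model of the same gene can be missed. H4C8 has 4 models, the longest of 2163 bases, and the 1 read held 18 bases after the stem-loop.

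Promoters of 40 of the 44 genes were matched in RefSeq (GRCh38.p14, windows that hold the start site), and 1 of each of 4 types is shown because the letters differ by histone type. Capitals mark matches on either strand to TATAAA (the TATA box), CCAAT (the CCAAT box), ATTTGCAT (the octamer), AAACACA (the H1 box) and GGTCCG (the end of a longer H4 promoter element). In H2BC21 a match to GGTCCG on the other strand overlaps a CCAAT, so that they form 1 run of capitals.
H1-5 (chr6:27867539-27867838, minus strand): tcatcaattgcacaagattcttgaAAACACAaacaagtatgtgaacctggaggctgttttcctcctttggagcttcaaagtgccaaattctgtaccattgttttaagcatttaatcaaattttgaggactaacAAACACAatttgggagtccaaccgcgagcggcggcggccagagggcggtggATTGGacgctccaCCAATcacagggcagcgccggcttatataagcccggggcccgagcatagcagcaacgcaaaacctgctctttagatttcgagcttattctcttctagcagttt
H2BC21 (chr1:149886633-149886932, minus strand): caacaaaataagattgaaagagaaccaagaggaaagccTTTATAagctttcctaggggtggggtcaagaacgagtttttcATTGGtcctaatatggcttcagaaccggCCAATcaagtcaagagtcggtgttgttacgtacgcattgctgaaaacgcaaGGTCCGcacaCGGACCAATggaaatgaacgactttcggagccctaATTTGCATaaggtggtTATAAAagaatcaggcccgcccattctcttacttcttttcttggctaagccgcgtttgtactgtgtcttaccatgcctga
H3C2 (chr6:26032050-26032349, minus strand): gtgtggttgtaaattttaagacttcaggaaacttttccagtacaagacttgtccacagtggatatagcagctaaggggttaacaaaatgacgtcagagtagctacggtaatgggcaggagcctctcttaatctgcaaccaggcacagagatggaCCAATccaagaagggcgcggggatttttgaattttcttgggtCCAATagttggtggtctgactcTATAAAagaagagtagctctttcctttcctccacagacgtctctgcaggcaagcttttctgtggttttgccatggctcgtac
H4C4 (chr6:26189063-26189362, minus strand): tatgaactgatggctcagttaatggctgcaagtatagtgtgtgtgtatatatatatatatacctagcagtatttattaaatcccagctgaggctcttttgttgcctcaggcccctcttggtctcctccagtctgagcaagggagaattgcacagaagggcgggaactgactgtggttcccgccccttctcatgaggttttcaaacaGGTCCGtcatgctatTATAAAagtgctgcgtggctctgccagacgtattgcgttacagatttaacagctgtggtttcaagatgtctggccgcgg
The octamer was found in 8 of 10 H2A, 9 of 11 H2B and 1 of 7 H3 promoters. It was in 0 of 5 H1 and 0 of 7 H4 promoters, and in 1.77% of all 35116 promoters. The motif counts here are by gene, and neighbouring genes can share most of a window. H2AC6 and H2BC4 share 1 octamer, as do H2AC8 and H2BC8, H2AC11 and H2BC11, H2AC14 and H2BC14, and H2AC20 and H2BC21. The H3 match is in H3C4, whose window (26199244 to 26199543) overlaps that of H2BC7 and holds the same octamer. That window lies outside the H3C4 model (26196840 to 26197250). Some other windows also lie outside the model, such as that of H1-5, whose model ends at 27867529. The H1 box was in 5 of 5 H1 promoters and 1 of 10 H2A promoters, against 5.64% of all. CCAAT was in 34 of 40, against 34.6% of all, and TATAAA in 28 of 40, against 11.5% of all. The longer H4 element (TCAATC, any base, GGTCCG) was in 0 of 7 H4 promoters and 0.0057% of all. Its end GGTCCG, searched after the longer form gave no match, was in 10 of 40 promoters and in 11.3% of all. The 10 were 7 of 7 of H4 and 1 each of H2A (H2AC20), H2B (H2BC21) and H3 (H3C7). H2AC20 and H2BC21 share their matches to GGTCCG. These are descriptions of letters and not of bound sites.

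The 41 genes with a model lay in 4 blocks on GRCh38: 2 genes on chromosome 1 between 149884459 and 149887364, and on chromosome 6 24 genes between 26017085 and 26285638, 4 between 27125897 and 27147515, and 11 between 27807444 and 27893149. Within these, 6 pairs of an H2A and an H2B gene lay back to back, with 219 to 323 bases between the starts of their models. For H2AC20 the RefSeq window that holds the start site ends at 149886967, before the model start at 149886975. For H2AC8 the window ends at 26216970, before the model start at 26216975. These distances are therefore not all between transcription starts. H2AC20 and H2BC21 are the pair on chromosome 1. The genes are short and alike, which bears on how reads were assigned. In 7 genes more than 20% of the 50-base stretches of the transcript also occur in another gene: H2AC13, H2AC14, H2AC17, H2AC20, H3C4, H4C11 and H4C12. The values of these 7 are uncertain where the authors' counting could split or drop shared reads. H2AC18, H3C2 and H3C3 had no model under the identifier of the count table and were not checked in this way. Models under other identifiers were not searched for, so shared reads of these genes remain unknown. In 3 genes the model also overlaps an exon of another gene on the same strand: H2AC16 (H2BC15), H2AC17 (H3C12) and H3C4 (ENSG00000282988). Their values carry the same uncertainty.

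Summed over the 44 genes, histone mRNA varied more within each label than between labels. The sum was 1481, 380.2, 334 and 1424 CPM in labelled knockdown 1 to 4, against 303, 1411, 739.9 and 745 CPM in labelled control 1 to 4. Labelled knockdown 1 and 4 and labelled control 2 formed the high end, and labelled knockdown 2 and 3 and labelled control 1 the low end, so the groups overlapped throughout. The means were 905 ± 633 CPM in labelled knockdown and 799.8 ± 457 CPM in labelled control (SD, n = 4 each). As a share, the genes took 0.0303% to 0.148% of counts, a 4.89-fold range, and the 95% Wilson intervals reached at most 0.00122 percentage points to either side, for counting error only.

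**Figure D1:**
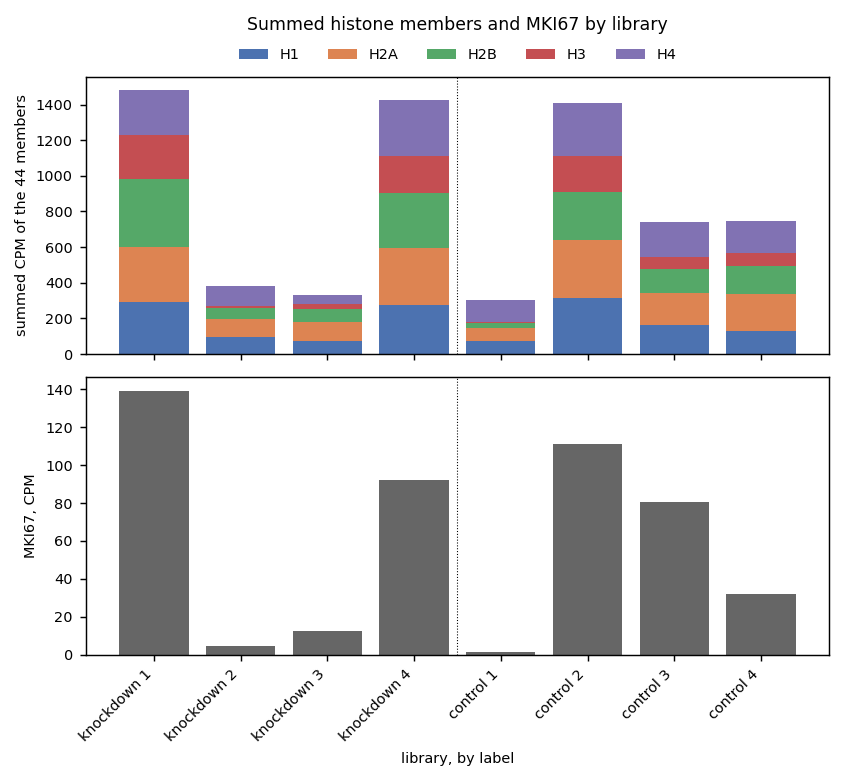
Summed CPM of the 44 histone genes, stacked by histone type (top), and CPM of MKI67 (bottom) in each of the 8 libraries, knockdown labels left of the dotted line and control labels right. The sum runs from 303 to 1481 CPM and MKI67 from 1.36 to 139 CPM, with high and low libraries under both labels.

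MKI67 followed the same split of libraries with a wider range. It stood at 139, 4.37, 12.7 and 92.1 CPM in labelled knockdown 1 to 4, against 1.36, 111, 80.4 and 32.2 CPM in labelled control 1 to 4. The same 3 libraries were highest and the same 3 lowest as for the histone sum, and the groups overlapped. The range was 102-fold, against 4.89-fold for the sum. The sum divided by MKI67 was therefore far from constant: 10.6, 87.1, 26.3 and 15.5 in labelled knockdown 1 to 4, against 223, 12.7, 9.20 and 23.1 in labelled control 1 to 4. Labelled control 1, the library of lowest MKI67, had the most histone counts per MKI67 count, and labelled knockdown 2 came next. Both were the libraries in which salivary gland genes took over 11% of counts (11.5% in labelled knockdown 2 and 12.8% in labelled control 1). The part of those tissues in the ratio was not tested.

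The split of libraries held for most genes taken singly. In 34 of the 44, labelled knockdown 2 and 3 and labelled control 1 were the 3 lowest libraries, and in 34 labelled knockdown 1 and 4 and labelled control 2 were the 3 highest. The first count includes H3C4, which was at 0 CPM in every control label too and so follows the split only by the order in which ties were taken. Labelled knockdown 1 was the highest library for 23 genes, labelled control 2 for 11, labelled knockdown 4 for 9 and labelled knockdown 3 for 1. Labelled control 1 was the lowest for 28, and 3 others were at 0 counts there in a tie with another library. The plot of all genes by library shows this as dark columns, broken by a few genes that stay bright. H4C2, H4C3 and H4C5 were above 10 CPM in labelled knockdown 2 and labelled control 1 but at 6.47, 9.44 and 6.31 CPM in labelled knockdown 3.

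**Figure D2:**
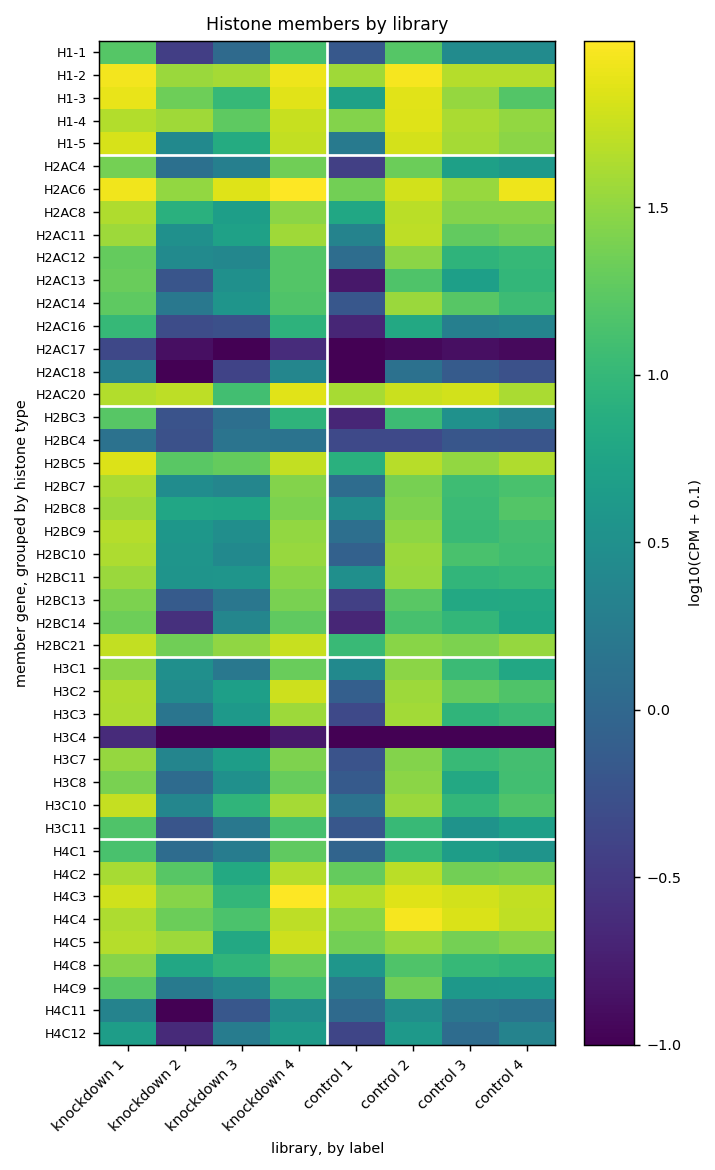
Level of each of the 44 histone genes (down the page, by type) in each library (across, knockdown labels left of the white line), as log10(CPM + 0.1). The columns of labelled knockdown 2 and 3 and labelled control 1 are dark for most genes, while H1-2, H1-4, H2AC6, H2AC20, H2BC21 and H4C4 are at 10 CPM or more in all 3.

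The range of the summed counts was widest for H3 and H2B, while single genes of each type ranged widely. The summed H3 genes, which all encode the same H3.1 protein, spanned a 37.4-fold range over the 8 libraries, and the summed H2B genes 13.6-fold. The range was 6.01-fold for H4, 4.46-fold for H2A and 4.41-fold for H1. Gene by gene, over those with more than 3 counts in every library, the range was 20.4-fold to 119.9-fold for 7 H3 genes (median 49.9) and 3.73-fold to 198-fold for 11 H2B genes (median 39.5). It was 4.26-fold to 91.8-fold for 8 H2A genes (median 25.8), 2.56-fold to 61.8-fold for 5 H1 genes (median 15.6) and 6.52-fold to 34.8-fold for 8 H4 genes (median 9.90). The upper ends for H2B (H2BC14), H2A (H2AC16) and H4 (H4C12) each rest on 4 counts in the lowest library, and so are uncertain. These ranges overlap between types, and the difference between types was not tested. Among the 3 low libraries, H4 genes made up 29.3% of the histone sum in labelled knockdown 2, 15.5% in labelled knockdown 3 and 40.9% in labelled control 1. Labelled knockdown 3 had the lowest H4 share of all 8 libraries and labelled control 1 the highest, with 17.1% in labelled knockdown 1, where the sum was highest. H3 genes made up 3.44% in labelled knockdown 2, 8.53% in labelled knockdown 3 and 2.14% in labelled control 1, the 3 lowest shares, against 16.4% in labelled knockdown 1. These are shares of counts and follow transcript length as well as transcript number.

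In the low libraries a few genes carried most of the counts. The number of genes needed to reach 80% of the histone sum was 24, 11, 15 and 22 in labelled knockdown 1 to 4, against 8, 23, 18 and 19 in labelled control 1 to 4. In labelled control 1 those 8 genes were H4C3, H2AC20, H1-2, H4C4, H1-4, H4C5, H2AC6 and H4C2, with 80.4% of the sum, while 21 genes were under 1 CPM. In the same library, H4C2 to H4C5 gave 94.1% of H4 counts and H2AC20 gave 55.1% of H2A counts, against 74.5% and 14.9% in labelled knockdown 1. Labelled knockdown 2 resembled it, with 91.9% and 50.1%, but labelled knockdown 3, also low in MKI67, had 70.1% and 11.6%. Labelled control 1 was above labelled knockdown 3 in 9 genes although its MKI67 was lower.

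Set against MKI67, the genes ranged from near-constant ratios to none. Over the 39 genes with more than 3 counts in every library, the median range of a gene's own level was 24.03-fold and that of its ratio to MKI67 11.8-fold. The ratio varied less than the level for 23 of the 39 and by under 5-fold for 10. H1-5, a linker histone, stood at 65.9, 2.54, 6.80 and 53.1 CPM in labelled knockdown 1 to 4, against 1.58, 64.2, 38.6 and 29.8 CPM in labelled control 1 to 4. Its ratio to MKI67 stayed between 0.473 and 1.16, a 2.45-fold range, beside a 41.8-fold range of its level. H3C2 and H2BC3, which encode H3.1 and an H2B, had ratio ranges of 2.63-fold and 2.95-fold, beside 82.2-fold and 152-fold for their levels. H2BC3 had only 4 counts in labelled control 1 and 15 in labelled knockdown 2, so its ranges are uncertain. At the other end, the ratio ranged 63.1-fold for H1-4, 75.8-fold for H4C3 and 91.0-fold for H2AC20, beside 4.00-fold, 10.5-fold and 5.95-fold for their levels. All of these ratios share MKI67 and the library, and they are given as descriptions.

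**Figure D3:**
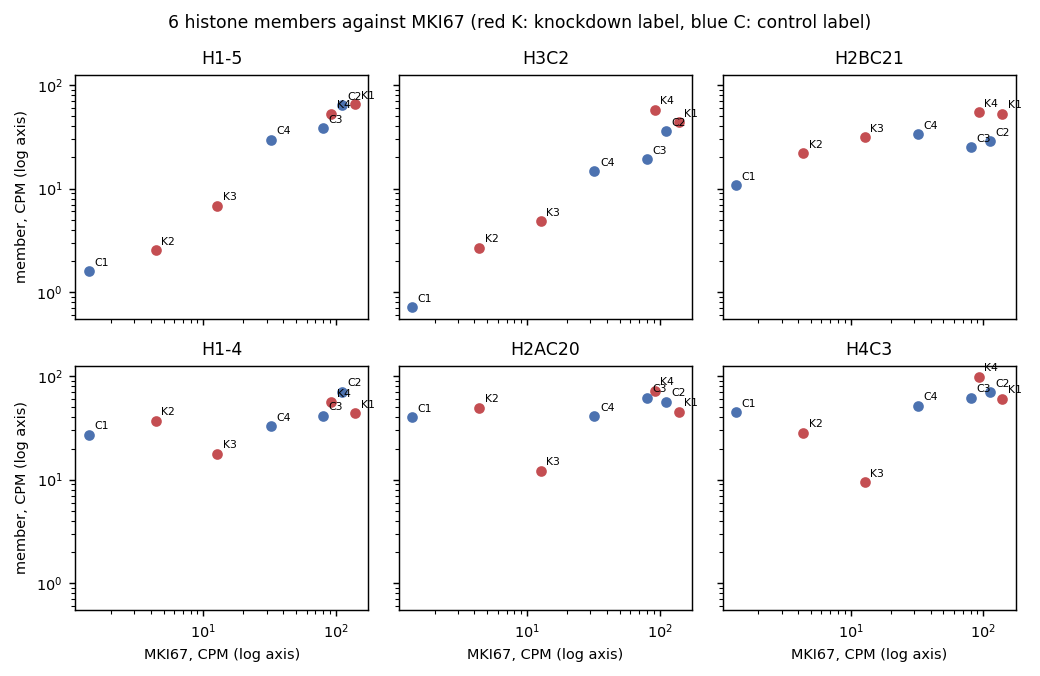
CPM of 6 histone genes against CPM of MKI67, both on log axes, 1 point a library (red K, knockdown label; blue C, control label). H1-5 rises with MKI67 at every step and H3C2 at all but 1, while H1-4, H2AC20 and H4C3 are lowest in labelled knockdown 3 (H1-4 17.8, H2AC20 12.2 and H4C3 9.44 CPM) and not where MKI67 is lowest.

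The histone genes were next compared between labels over all 8 libraries. No histone gene passed: 0 of the 42 tested had an adjusted p under 0.05 in edgeR's quasi-likelihood test with Benjamini-Hochberg adjustment, and 0 of all 21192 genes did (0%). At an unadjusted p under 0.05 the count was 1 of 42, against 4.78% of all genes. With labelled knockdown 2 left out, 0 of 42 histone genes and 1 of 22142 genes (0.00452%) passed in edgeR. DESeq2 called 0 of these 42 genes and 148 of 24437 genes (0.606%). No histone gene had groups that did not overlap, on CPM of library totals or on TMM-scaled CPM, against 2.54% of all genes on TMM-scaled CPM. H2AC17 and H3C4 were too low to be tested, at 0 to 0.349 CPM and 0 to 0.133 CPM. The fitted value was higher under the knockdown label for 35 of the 42, against 46.8% of all genes, and the median log2 difference was 0.70, against −0.05 over all genes. Without labelled knockdown 1 that median was −0.05, with 20 of 42 fitted higher, and without labelled control 2 it was 1.33. The higher side held 5 of 5 H1 genes, 6 of 10 H2A, 11 of 11 H2B, 7 of 7 H3 and 6 of 9 H4.

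**Figure D4:**
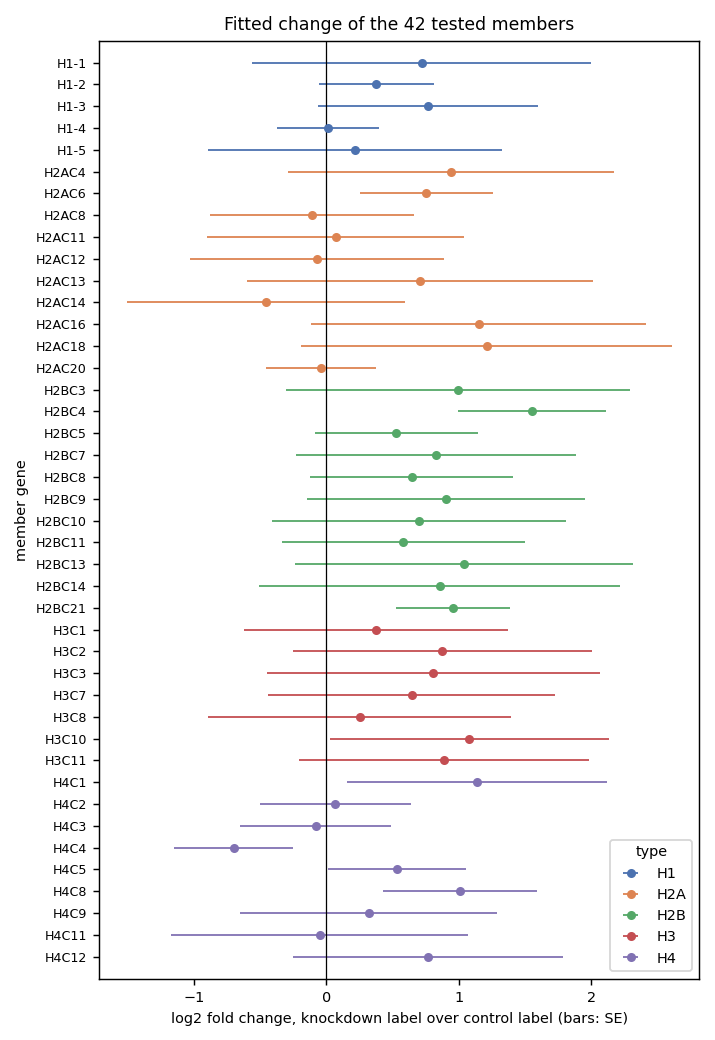
Fitted log2 fold change, knockdown label over control label, of the 42 histone genes tested, with bars of 1 SE, coloured by histone type. Points right of 0 are higher under the knockdown label; H2BC4 lies farthest right at 1.55 and H4C4 farthest left at −0.70, and no gene passed the adjusted threshold.

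Among the linker histones, which bind DNA between nucleosomes, H1-2 stood at 88.8, 35.1, 39.2 and 82.4 CPM in labelled knockdown 1 to 4, against 37.0, 89.8, 46.0 and 45.7 CPM in labelled control 1 to 4. A single library, control 2, lifted the control side, and the groups overlapped (log2 difference 0.38, SE 0.43, adjusted p = 0.987). H1-4 stood at 44.2, 37.2, 17.8 and 56.0 CPM in labelled knockdown, against 27.2, 71.3, 41.5 and 32.8 CPM in labelled control. The lowest library was labelled knockdown 3, the highest labelled control 2, and the fitted difference was 0.01 (SE 0.38, adjusted p = 1.00).

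Among the H2A genes, H2AC6, which also gives a polyadenylated transcript, stood at 86.7, 32.4, 71.2 and 96.6 CPM in labelled knockdown, against 22.7, 62.3, 33.7 and 83.5 CPM in labelled control. Labelled knockdown 3 was high here in spite of its low MKI67, and the groups overlapped (log2 difference 0.75, SE 0.50, adjusted p = 0.981). H2AC20 stood at 45.3, 49.8, 12.2 and 72.4 CPM in labelled knockdown, against 40.2, 57.0, 62.3 and 41.0 CPM in labelled control. Apart from labelled knockdown 3, all libraries lay within 40.2 to 72.4 CPM (log2 difference −0.04, SE 0.42, adjusted p = 0.999). Of the 50-base stretches of H2AC20, 30.5% also occur in other genes.

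Among the H2B genes, H2BC5 stood at 69.2, 16.8, 19.3 and 52.0 CPM in labelled knockdown, against 7.96, 47.2, 32.1 and 43.2 CPM in labelled control. Labelled control 1 was lowest and the groups overlapped (log2 difference 0.53, SE 0.62, adjusted p = 0.987). H2BC21, whose promoter is shown above, stood at 52.9, 22.0, 31.3 and 54.9 CPM in labelled knockdown, against 10.8, 28.7, 25.2 and 33.4 CPM in labelled control. Labelled knockdown 2 and 3 lay inside the control range, and edgeR's log2 difference was 0.96 (SE 0.43, adjusted p = 0.981). H2BC4 was the 1 gene with an unadjusted p under 0.05. It stood at 1.26, 0.456, 1.32 and 1.29 CPM in labelled knockdown, against 0.353, 0.356, 0.527 and 0.519 CPM in labelled control, from 13 to 76 counts a library. Labelled knockdown 2 fell inside the control range, and edgeR's log2 difference was 1.55 (SE 0.56, adjusted p = 0.981).

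Among the H3 genes, H3C2 stood at 44.02, 2.67, 4.83 and 58.1 CPM in labelled knockdown, against 0.707, 36.0, 19.2 and 14.8 CPM in labelled control. H3C10 stood at 54.2, 2.28, 8.997 and 39.0 CPM in labelled knockdown, against 1.25, 34.7, 9.43 and 14.6 CPM in labelled control. Both were lowest in labelled control 1, with labelled knockdown 2 next, and both groups spanned more than a 10-fold range. The log2 differences of 0.87 (SE 1.13, adjusted p = 0.989) and 1.08 (SE 1.05, adjusted p = 0.981) were no larger than about 1 SE.

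The H4 genes, which all encode the same protein, went several ways. H4C3 stood at 61.0, 28.5, 9.44 and 99.2 CPM in labelled knockdown, against 45.1, 70.1, 62.3 and 52.1 CPM in labelled control (log2 difference −0.08, SE 0.57, adjusted p = 0.998). H4C4 stood at 42.2, 21.2, 13.99 and 50.0 CPM in labelled knockdown, against 28.9, 91.3, 66.4 and 51.1 CPM in labelled control (log2 difference −0.70, SE 0.45, adjusted p = 0.981). For H4C3 the knockdown labels held both the highest and the lowest library, while for H4C4 the 3 highest libraries were all control labels. H4C8 stood at 28.3, 6.22, 8.997 and 18.8 CPM in labelled knockdown, against 3.62, 14.6, 9.99 and 8.94 CPM in labelled control. Its groups overlapped, and edgeR's log2 difference was 1.01 (SE 0.58, adjusted p = 0.981).

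Genes known to give polyadenylated transcripts (H1-2, H2AC6, H2BC4, H2BC5 and H2BC21) were set against the rest, because the labels name polyA RNA as the molecule while their extraction protocol describes removal of ribosomal RNA from total RNA. These 5 genes made up 20.2%, 28.1%, 48.6% and 20.2% of the histone sum in labelled knockdown 1 to 4, against 25.98%, 16.2%, 18.6% and 27.7% in labelled control 1 to 4. Labelled knockdown 3 stood apart with the highest share, and the groups overlapped. The other 39 genes, whose mRNAs mostly lack a polyA tail, summed to 1182, 273, 171 and 1137 CPM in labelled knockdown, against 224, 1183, 602 and 539 CPM in labelled control. The split is not clean, because H2AC11, H2BC7, H2BC8, H2BC9, H3C8, H3C10 and H4C5 are among these 39. Their models hold more than 500 bases after the stem-loop. This list may be incomplete, because only 1 matching model a gene was read. RN7SL1, the RNA scaffold of the particle that targets secreted proteins, has no polyA tail. It stood at 24681, 74537, 110718 and 19657 CPM in labelled knockdown, against 31685, 28173, 6533 and 28040 CPM in labelled control. RMRP, the RNA of RNase MRP, also without a tail, stood at 3330 to 7149 CPM in labelled knockdown, against 4088 to 8579 CPM in labelled control. Another 4 of the 7 RNAs listed as tailless were listed at 0 in all libraries. Labelled knockdown 3, highest in RN7SL1, was among the lowest in histone sum, so these tailless RNAs did not move together. Whether RNA selection differed between libraries was not tested.

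The factors that make and process histone mRNA were steadier than the histone genes. The 18 genes of this list summed to 406 to 560 CPM in labelled knockdown, against 414 to 905 CPM in labelled control, a 2.23-fold range over all. None was called, 5 were fitted higher and 13 lower under the knockdown label, and their median log2 difference was −0.24. YBX1, an RNA-binding protein, averaged 62.4 ± 25.3 CPM in labelled knockdown and 98.9 ± 24.7 CPM in labelled control (SD, n = 4 each). SYMPK, a scaffold of the cleavage complex, averaged 61.3 ± 7.66 CPM in labelled knockdown and 91.5 ± 42.2 CPM in labelled control, and both pairs of groups overlapped. SLBP, named for its role, stood at 33.3, 15.0, 14.9 and 18.3 CPM in labelled knockdown, against 6.77, 25.1, 20.1 and 27.5 CPM in labelled control. It was lowest in labelled control 1, like 28 of the histone genes, with overlapping groups and a 4.92-fold range. LSM10, a subunit of the U7 particle that directs histone mRNA cleavage, was named after its values were seen, as the 1 gene of the list with an unadjusted p under 0.05 in edgeR (log2 difference −0.83, SE 0.33, adjusted p = 0.981). It stood at 9.07, 13.1, 7.71 and 9.78 CPM in labelled knockdown, against 21.1, 22.0, 13.3 and 20.8 CPM in labelled control. On these CPM of library totals every knockdown label lay below every control label, but on TMM-scaled CPM the groups overlapped.

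The sums of S phase and of mitosis genes were lowest in the same 3 libraries as the histone sum. The 22 S phase genes, of replication forks and nucleotide synthesis, summed to 238 to 799 CPM in labelled knockdown, against 210.0 to 963 CPM in labelled control, a 4.58-fold range beside 4.89-fold for the histone sum and 6.90-fold for the histone sum without the 5 polyadenylated genes. Gene by gene, the median range was 6.86-fold for the S phase genes, 49.9-fold for the mitosis genes and 24.03-fold for the 39 histone genes. The 12 mitosis genes summed to 30.9 to 467 CPM in labelled knockdown, against 10.1 to 369.7 CPM in labelled control, a 46.1-fold range. Of the S phase genes 8 were fitted higher and 14 lower (median −0.12), of the mitosis genes 9 higher and 3 lower (median 0.29), and none was called. MCM4, a subunit of the replicative helicase, stood at 128, 20.8, 53.7 and 84.4 CPM in labelled knockdown, against 16.04, 131, 99.2 and 202 CPM in labelled control. TOP2A, the topoisomerase of mitotic chromosomes, stood at 71.1, 3.72, 7.54 and 58.5 CPM in labelled knockdown, against 0.544, 59.8, 47.1 and 63.3 CPM in labelled control. RRM1, of nucleotide reduction, averaged 70.99 ± 34.2 CPM in labelled knockdown and 74.9 ± 31.6 CPM in labelled control. MCM4 and TOP2A were lowest in labelled control 1 and next lowest in labelled knockdown 2, but labelled control 4, in the middle for the histone sum, was the highest library for MCM4. MKI67 itself had a log2 difference of 0.45 (SE 1.22, adjusted p = 0.996).

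Of the list sums, that of the replication-independent histones varied least. The 11 replication-independent histone genes summed to 791 to 1196 CPM in labelled knockdown, against 643 to 1366 CPM in labelled control, a 2.13-fold range, with 5 fitted higher, 6 lower, a median of −0.01 and none called. H3-3B, which encodes H3.3, stood at 491, 235, 493 and 386 CPM in labelled knockdown, against 182, 513, 516 and 321 CPM in labelled control. It was lowest in labelled control 1 and labelled knockdown 2, but high in labelled knockdown 3, where the replication-dependent sum was low. H3-3A, which encodes the same protein, averaged 139 ± 26.1 CPM in labelled knockdown and 211 ± 77.6 CPM in labelled control. H2AJ, an H2A variant named after its values were seen, was the 1 gene of this list whose groups did not overlap, on both scales. It stood at 53.0, 24.9, 42.6 and 34.3 CPM in labelled knockdown, against 18.3, 14.8, 13.3 and 19.5 CPM in labelled control. Every knockdown label lay above every control label, yet edgeR's adjusted p was 0.981 (log2 difference 1.45, SE 0.41). The 12 histone chaperones, which carry histones to chromatin, summed to 362 to 519.9 CPM in labelled knockdown, against 289.7 to 692 CPM in labelled control, with 4 fitted higher, 8 lower, a median of −0.10 and none called. NPM1, a nucleolar chaperone, averaged 229 ± 28.97 CPM in labelled knockdown and 274 ± 104 CPM in labelled control, and ATRX, a chromatin remodeller that works with DAXX, 90.8 ± 35.8 CPM in labelled knockdown and 98.4 ± 30.1 CPM in labelled control.

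A further 24 replication-dependent histone genes are in the table and outside the list. Their sum was 429, 91.4, 69.6 and 458 CPM in labelled knockdown 1 to 4, against 55.3, 414, 185 and 193 CPM in labelled control 1 to 4. It had the same 3 high and the same 3 low libraries as the sum over the 44.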

How the data were processed

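RNA-seq of 8 libraries was read from 1 table of raw whole-number counts per gene, deposited without normalisation. The submitters' processing notes name STAR, featureCounts, Subread and hg38. What the notes leave out (versions, annotation, strand, multi-mapped reads) is not given in the sources used, so reads of overlapping or near-identical genes cannot be told apart. The columns call the treated libraries a knockout and were matched to the titles by group and number. CPM is a count over the library's column total, as the rule for these genes asks.

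Labels were compared with edgeR 4.0.16 (filterByExpr, TMM factors, intercept and group, quasi-likelihood test) in R 4.3.3 over all genes, with an adjusted p under 0.05 as the threshold. The code of the test was run on simulated counts with 1 spread for all genes and no tissue differences between libraries. That run does not bear on what the test could detect in these libraries. Alternatives used DESeq2 1.42.0, limma 3.58.1, other factors and filters, a replicate block, and fewer libraries. Named were the 2 genes of each type with the highest mean CPM, the 3 of smallest p, genes called or without overlap, MKI67, and the 2 most abundant of each comparison list. The genes and lists were chosen with earlier results of these data known. Promoters came from RefSeq and transcripts from GENCODE 29; no protein sequence was used here.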

Additional observations from a re-analysis of the deposited data

Results flagged for a closer look

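In 42 groups of 4 libraries looked at, 3 had 1 library far from the other 3 by Dixon's ratio at its 95% critical value, where chance gives about 1 group in 20. H1-2 in labelled control was 89.8 CPM in control 2, against 37.0 to 46.0 CPM in the other 3. H2BC4 in labelled knockdown was 0.456 CPM in knockdown 2, against 1.26 to 1.32 CPM in the others. The histone sum divided by MKI67 in labelled control was 223 in control 1, against 9.20 to 23.1 in the others.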

How the results depend on the processing

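No histone gene was called under any of the 8 other settings or with any 1 library left out. The number of all genes called was 148 with DESeq2, and 0 to 1 with 1 library left out (1 without knockdown replicate 2). The members' median log2 difference ran from 0.34 without the muscle- or gland-rich libraries (2 against 2) to 0.72 with RLE factors over the other settings, and from −0.05 (without knockdown replicate 1) to 1.33 (without control replicate 2) over the left-out libraries. The difference of the summed share was 0.0105 percentage points, and ran from −0.00873 to 0.0309 with 1 library left out. With library totals in place of TMM the median of all genes shifted by −0.16, and the members' median relative to it was 0.64, against 0.75 with TMM.

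The fitted H1-4 difference of 0.01 turned to −0.011 with DESeq2, −0.15 with library totals, −0.026 with no filter and −0.31 without the muscle- or gland-rich libraries. With 1 library left out it ran from −0.14 to 0.34, H2AC20 from −0.29 to 0.24, H4C3 from −0.53 to 0.24 and MKI67 from −0.47 to 1.06. Of 104 values of named genes under other settings, 99 kept their direction and their side of the threshold and 5 changed sign.

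With replicate number as a block, the members' median was 0.36 (30 of 42 higher), 0 genes were called and MKI67 turned to −0.090. The numbers did not pair the libraries: same-numbered libraries' deviations correlated at −0.66 to −0.37, and 0 of 8 libraries correlated best with their own number. Genes at 3 or fewer counts in a library (5 of 44) are limited by depth.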
